A study of Mus musculus with 6 samples.

Results

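The genes described here encode the proteins with which a mammalian cell, once alerted by interferon, detects viral RNA and blocks the copying of viruses. They were chosen by name as 39 interferon-induced antiviral genes, and all 39 had a row among the 16540 genes of the deposited table, found through the Ensembl identifiers of GENCODE M21. The rule names genes and uses no measured value. These genes, and the pathway genes and relatives listed below, were however chosen with earlier results of these data known. Their counts may therefore not be independent of the data. By role they comprised 6 genes of RNA sensing, 4 of the Oas family, 3 of the Ifit family, 3 guanylate-binding proteins (Gbp), 2 Mx genes, 5 of the Parp group with its partner Dtx3l, 7 of ubiquitin and ubiquitin-like modification and 9 other effectors. All 39 passed the filter on low values, which asked for 10 or more normalised counts in 2 or more libraries and left 16526 genes to be tested.

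The cells were NIH-3T3, an established fibroblast line from NIH/Swiss mouse embryos, and RNA was read by poly-A RNA sequencing of 6 libraries. Every culture carried Cas9 from a lentivirus and survived puromycin at 2 ug/mL, and the infected cells were used as polyclonal pools, so that edited and unedited cells may lie in the same sample. The guides were R26 sg1, the control, whose name refers to the Rosa26 locus, and PC sg2 and PC sg5, named after pyruvate carboxylase (gene Pcx), a mitochondrial enzyme that makes oxaloacetate from pyruvate. Before harvest all pools were kept for 48 h at 0.2 mM glutamine, with 10% serum that had been dialyzed, and each guide had 2 libraries. The labels name no interferon treatment and no virus other than the lentivirus. The lentivirus, Cas9, puromycin and low glutamine were common to the controls and the PC pools. R26 sg1 was the only control guide. A higher level in its pool and a lower level in the PC pools therefore cannot be told apart. Whether the 2 libraries of each guide were separate cultures is not stated in the labels. The p-values therefore reflect only the spread among these 6 samples, and that spread may be technical. In bulk RNA of this kind, fewer cells that express a gene and less RNA of it per cell cannot be told apart.

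Type I interferons are secreted proteins that bind a receptor made of Ifnar1 and Ifnar2. The receptor's kinases, Jak1 and Tyk2, phosphorylate Stat2, which with Irf9 binds the interferon-stimulated response element near genes such as those described here. Fibroblasts respond to interferon in this way, and many of these genes are also expressed at a lower level in cells to which no interferon was added.

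Recovered depth lay between 22895172 and 71710049 reads per library, so that 3 reads corresponded to between 2.18 and 6.41 normalised counts. Pcx itself had 2914 and 3015 normalised counts under the control guide, 316 and 375 under PC sg2 and 713 and 716 under PC sg5, which left 17.9% of the control level on average over the 4 PC libraries. All 12 fibroblast markers listed had a row, and their summed level was 1897000 to 1967000 normalised counts under the control guide and 1016000 to 1053000 under the PC guides. Of 12 leukocyte and macrophage markers 6 had a row, with sums of 2033 and 2139 under the control guide and of 1290 to 1346 under the PC guides. Ptprc, Adgre1, Itgam, Cd3e and Siglech were among those without one and were not analysed here. The endothelial and epithelial lists had 1 row each of 4 genes. Pecam1 had 10.4 to 13.8 under the control guide and 10.7 to 29.8 under the PC guides, and Cdh1 had 57.4 to 58.7 and 8.55 to 19.1. The fibroblast and leukocyte sums were both lower in the PC pools, as most of the antiviral genes were, and their part in the results below was not tested.

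Most of the antiviral genes were lower in both PC pools than in the control. With both guides set against the control, 36 of the 39 genes fell and 2 rose at an adjusted p under 0.05 (limma), while of all genes tested 33.6% fell and 34.3% rose. The fall was at least 2-fold for 28 of the 39, against 11.3% of all genes tested. The median log2 fold change, from log2 of the normalised count plus 1, was -1.33 for the 39 genes and -0.01 for all genes tested. On the linear scale the median gene kept 39.9% of its control level, and 12 of the 39 kept less than 30%. The 2 that rose were Ifit2 and Ifi27, and Oasl1 was the one gene that did not pass.

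Single libraries gave the same picture. Summed over the 39 genes, the controls held 179487 and 191101 normalised counts, PC sg2 held 92842 and 94329, and PC sg5 held 93708 and 95797. Every PC library lay below both controls in this sum. The share of all normalised counts taken by these genes was 0.347% and 0.368% in the controls, and lay between 0.187% and 0.196% under the PC guides. Abundant genes weigh most in the sum and the share. Rnf213 alone had a mean of 42080 in the controls, and kept 54.7% of it. As a median over the 39 genes, the log2 difference from the control mean lay between -1.38 and -1.31 in the 4 PC libraries. For 37 of the 39 genes all 4 PC libraries were below both controls, a separation that 36.6% of all genes tested showed in the lower direction. In Ifit2 and Ifi27 all 4 lay above both, which 36.6% of all genes did in the higher direction. The controls differed little, with a median of control replicate 1 minus control replicate 2 of -0.08 on the log2 scale over the 39 genes.

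**Figure D1:**
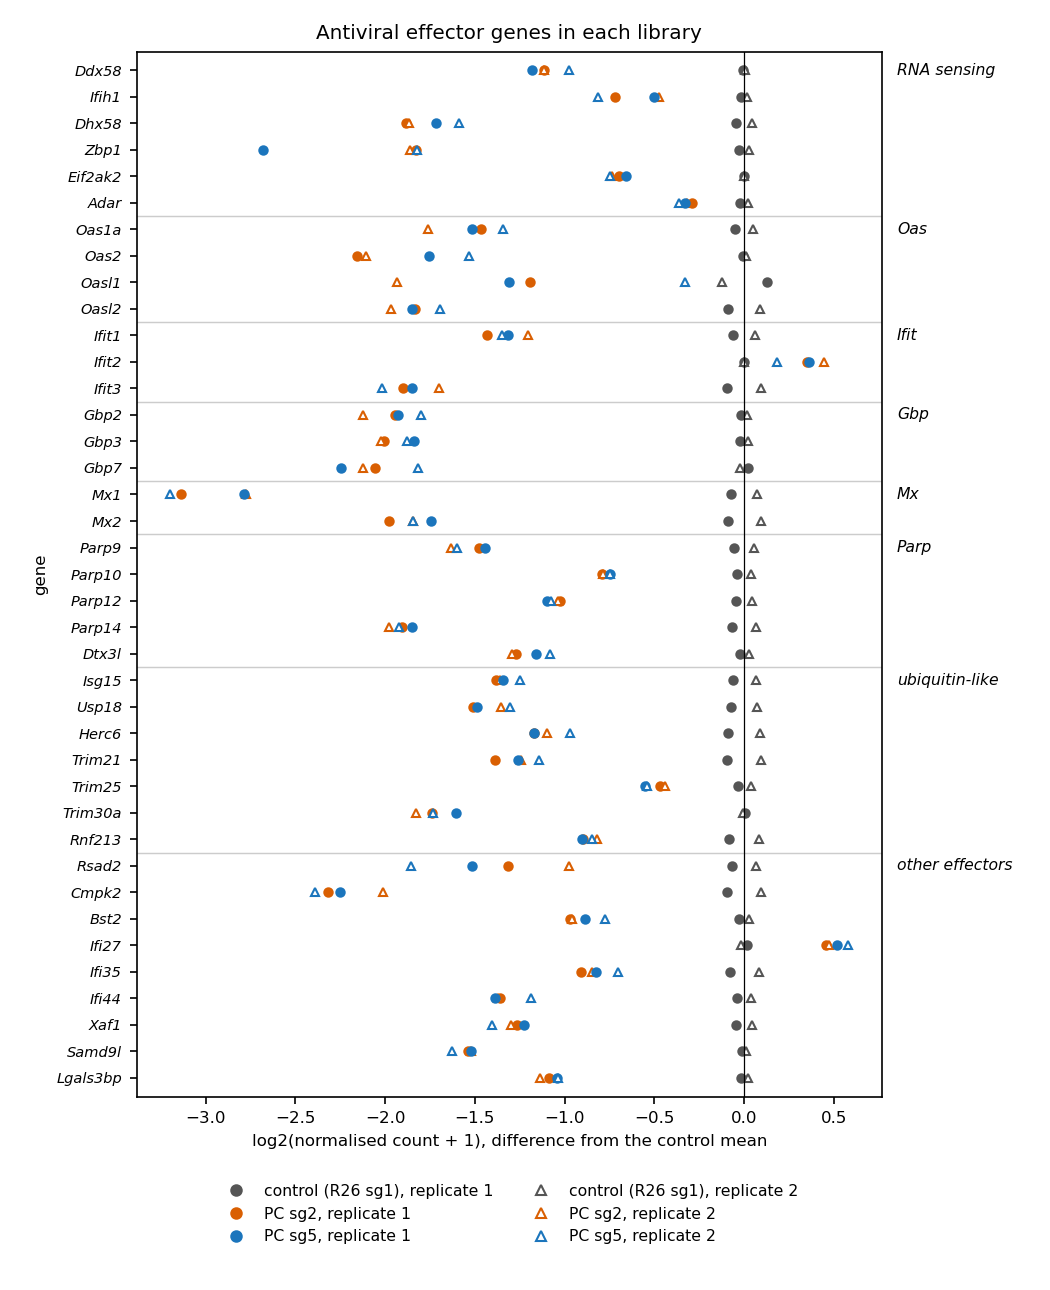
Log2 of the normalised count plus 1, minus the mean of the 2 control libraries, for the 39 antiviral genes in each of the 6 libraries. The 4 PC libraries are lower than the controls in 37 genes, and higher in Ifit2 and Ifi27.

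**Figure D2:**
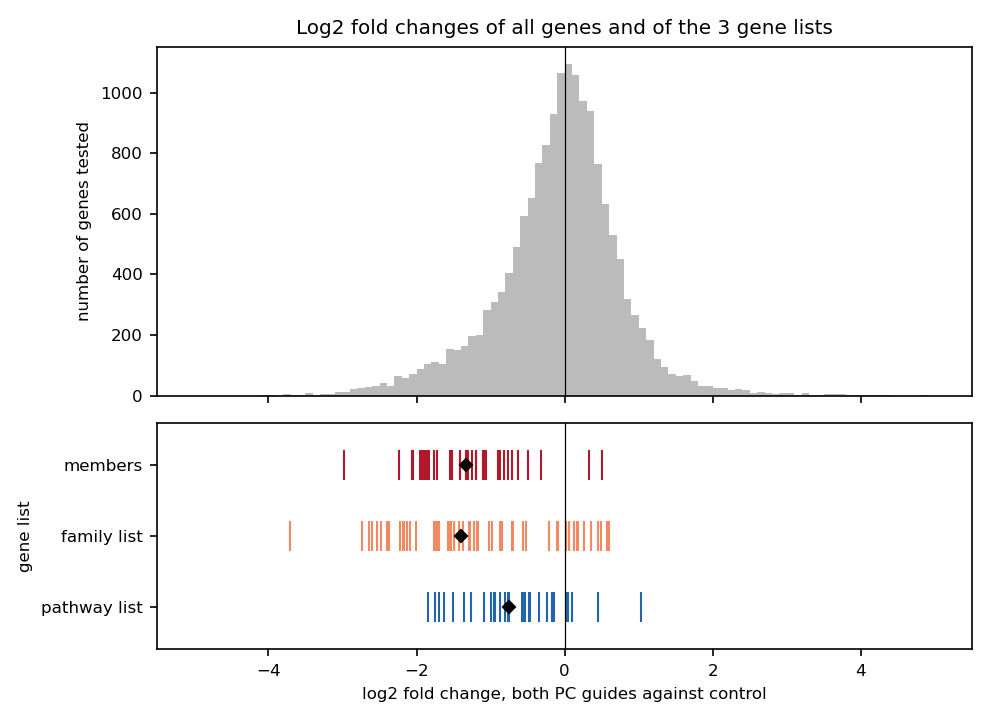
Distribution of the log2 fold change of both PC guides against the control, for all 16526 genes tested and for the 39 antiviral genes. All genes centre on a median of -0.01, while the median of the 39 is -1.33.

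The core of the response element bound by Stat2 and Irf9 can be read near the start of many of these genes. RefSeq promoters (mouse build GRCm38.p6, 250 bases before to 50 bases after the transcript start) were matched by symbol for 29 of the 39. The core, 2 blocks of GAAA with any 2 bases between them, searched on both strands with overlapping matches counted, was found in 14 of the 29, or 48.3%. Of all 27025 genes with a promoter entry 3.99% held it, as did 3.44% of the 32851 promoters. Since these genes were picked as interferon-induced, the share of cores is not independent of that choice. The windows below show 1 site for each of 9 genes that fell, with every core in capitals, and are written 5′ to 3′ on the strand that reads GAAA:
Isg15, chr4:156200871-156200900, minus strand: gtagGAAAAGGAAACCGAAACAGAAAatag
Ddx58, chr4:40239804-40239833, plus strand: ctggccatagGAAATCGAAActgcctcagg
Oas1a, chr5:120907523-120907552, minus strand: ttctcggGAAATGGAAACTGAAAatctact
Gbp2, chr3:142620594-142620623, minus strand: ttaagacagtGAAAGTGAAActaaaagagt
Gbp3, chr3:142559992-142560021, minus strand: gatctggGAAATAGAAACTGAAActgtgtc
Gbp7, chr3:142530273-142530302, minus strand: atggagaactGAAACTGAAActgcacacac
Trim21, chr7:102565447-102565476, minus strand: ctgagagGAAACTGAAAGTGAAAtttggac
Rsad2, chr12:26456553-26456582, plus strand: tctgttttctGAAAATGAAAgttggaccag
Bst2, chr8:71537580-71537609, minus strand: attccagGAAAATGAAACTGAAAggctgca
Isg15 carried 3 overlapping cores in this window, and Oas1a, Gbp3, Trim21 and Bst2 carried 2 each. In Ddx58 and Trim21 the core lies just downstream of the RefSeq start, and in the other 7 upstream of it. The other genes with a core were Ifih1, Eif2ak2, Ifit1, Ifit3 and Trim30a. In Ifih1 and Eif2ak2 the only core begins 32 and 18 bases downstream of the RefSeq start.

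All 14 genes with a core fell, with a median log2 fold change of -1.37. Of the 15 with an entry but no core 13 fell, with a median of -1.10, and the other two are Ifit2, which rose, and Oasl1. Outside the 39 antiviral genes, 396 tested genes held a core, and 45.5% of them fell with a median of -0.16. Of the 10647 tested genes without a core, which include the 15 antiviral genes, 35.4% fell. The gamma-activated site TTCNNNGAA, a palindrome known from genes induced by interferon gamma, occurred in 7 of the 29 promoters, or 24.1%, and in 9.55% of all genes with an entry. Of these 7 antiviral genes 6 fell, with a median log2 fold change of -0.82. Of the 22 with an entry but no such site 21 fell, with a median of -1.31. A match of letters is a description of the window and not evidence of binding. Dhx58, Zbp1, Oas2, Mx1, Mx2, Parp9, Parp10, Parp14, Usp18 and Ifi27 had no entry.

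Below, 4 PC values in a row stand for PC sg2 replicates 1 and 2 and then PC sg5 replicates 1 and 2, after the 2 control values. The 6 genes of RNA sensing all fell, and 3 of them by at least 2-fold, with a median log2 fold change of -0.90. Ddx58 encodes RIG-I, a cytoplasmic helicase that recognises viral RNA ends. It had 7691 and 7741 normalised counts under the control guide, 3558 and 3557 under PC sg2 and 3404 and 3927 under PC sg5. The PC libraries lay far below both controls, the log2 fold change being -1.10 ± 0.04 (SE) and the adjusted p 1.63e-15. Dhx58 encodes LGP2, a helicase that modulates signalling by RIG-I and MDA5, and had 1595 and 1694 in the 2 controls and 444, 451, 499.7 and 545 across the 4 PC libraries. Its log2 fold change of -1.76 left 29.5% of the control level. Zbp1, a sensor of left-handed nucleic acid that can start necroptosis, had 698 and 727 under the control guide, 200.2 and 196 under PC sg2 and 110.3 and 201 under PC sg5. All PC values of Zbp1 were lower than both controls, the lowest being PC sg5 replicate 1, and the log2 fold change was -2.05 ± 0.16 (SE) with an adjusted p of 2.26e-10.

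The other three sensing genes fell by less than 2-fold. Ifih1, which encodes the long-RNA sensor MDA5, had 327 and 335 normalised counts in the 2 control libraries and 201, 238, 234 and 188 across the PC libraries, or -0.63 ± 0.13 (SE) as a log2 fold change. Its groups did not overlap. Eif2ak2 encodes PKR, the kinase that stops translation on binding double-stranded RNA, and went from 7023 and 7020.3 to 4324, 4214, 4453 and 4185, keeping 61.2% of the control level. Adar, an enzyme that edits adenosine in double-stranded RNA and so marks it as the cell's own, fell by 0.32 on the log2 scale, from 6876 and 7073 to 5713, 5591, 5546 and 5423. Adar had the smallest change of the 36 genes that fell. Its exons share 16.8% of their bases with Chrnb2 on the other strand, and reads of both genes cannot be told apart without strand.

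The Oas genes make the short oligoadenylates that activate RNase L, which degrades RNA in infected cells, and the Oasl genes are their close relatives. Of the 4 in the set 3 fell, each by at least 2-fold. Oas2 had 1022 and 1035 normalised counts under the control guide, 229.9 and 238 under PC sg2 and 303 and 355 under PC sg5. PC sg5 lay above PC sg2 in both libraries, and all 4 were below the controls, the log2 fold change being -1.89 ± 0.09 (SE) and the adjusted p 9.85e-14. Oas1a went from 1007 and 1078 to 376, 306, 364 and 410.4, a log2 fold change of -1.52. Of its 50-base transcript windows 57.6% also occur in Oas1g, so its value is uncertain where the counting could split reads between copies. Oasl2 went from 6074 and 6859 to 1808, 1650.0, 1791 and 1992, a log2 fold change of -1.84, with no overlap between the groups.

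Oasl1, known as a brake on the translation of Irf7, was near the limit of detection, with as few as 4 reads in a library. It had 20.9 and 17.4 normalised counts under the control guide, 7.79 and 4.25 under PC sg2 and 7.08 and 15.0 under PC sg5. The PC values were below the controls, yet the log2 fold change of -1.19 ± 0.55 (SE) missed the threshold with an adjusted p of 0.0613. Over the other settings its adjusted p ran from 0.0258 to 0.275. It passed with a pseudocount of 8 (log2 fold change -0.75), in edgeR (-1.27), without PC sg2 replicate 1 (-1.38) and without PC sg5 replicate 2 (-1.44).

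Ifit proteins bind viral RNA that lacks the cell's own cap marks and block its translation. The 3 Ifit genes of the set lie with 3 relatives on chromosome 19 between 34550694 and 34650009 (GRCm38), and they split in direction: Ifit1 and Ifit3 fell, and Ifit2 rose. Ifit1 had 4169.6 and 4537 normalised counts under the control guide, 1614 and 1888 under PC sg2 and 1750.1 and 1710.0 under PC sg5. Its PC libraries kept 40% of the control mean, the log2 fold change being -1.32 ± 0.05 (SE) and the adjusted p 3.51e-15. Ifit3 had 2844 and 3247 in the 2 controls and 813, 936, 843 and 750.3 across the PC libraries, or -1.87 ± 0.07 (SE) as a log2 fold change, and 51.2% of its 50-base windows also occur in its copy Ifit3b. Ifit2, the first gene of the cluster on the plus strand, had 2277 and 2276 under the control guide, 2905 and 3093 under PC sg2 and 2929 and 2584 under PC sg5. Every PC library of Ifit2 was above both controls, by a log2 fold change of 0.34 ± 0.05 (SE) with an adjusted p of 2.68e-06. Over the 17 other settings the value stayed between 0.29 and 0.38, and no 50-base window of Ifit2 was shared with another gene.

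The relatives between them also fell. Ifit3b had a log2 fold change of -2.09, from 1273 and 1439 normalised counts to 259, 402, 313 and 308. Ifit1bl2 had -1.49. Ifit1bl1 had 108 and 146 in the 2 controls and 8.57, 25.5, 10.1 and 2.14 across the PC libraries, down to 1 read in PC sg5 replicate 2, which is under the floor of 3 reads. Thus Ifit2 was the one of the 6 genes in this stretch that rose.

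The upstream sequences of the 3 genes show where they differ in the letters searched. Printed are the 250 bases before the RefSeq start on the plus strand, in which a core on the opposite strand reads as 2 blocks of TTTC with 2 bases between them and is in capitals:
Ifit1, chr19:34640639-34640888, plus strand: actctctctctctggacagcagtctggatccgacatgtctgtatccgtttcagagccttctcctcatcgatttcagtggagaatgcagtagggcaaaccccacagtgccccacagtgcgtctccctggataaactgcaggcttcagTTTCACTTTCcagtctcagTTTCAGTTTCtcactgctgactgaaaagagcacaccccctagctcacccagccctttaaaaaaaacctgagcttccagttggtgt
Ifit3, chr19:34583279-34583528, plus strand: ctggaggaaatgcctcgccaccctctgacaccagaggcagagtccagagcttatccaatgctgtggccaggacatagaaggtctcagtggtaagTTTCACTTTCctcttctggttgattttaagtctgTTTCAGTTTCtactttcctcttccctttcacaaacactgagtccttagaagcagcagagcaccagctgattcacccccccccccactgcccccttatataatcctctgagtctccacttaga
Ifit2, chr19:34550444-34550693, plus strand: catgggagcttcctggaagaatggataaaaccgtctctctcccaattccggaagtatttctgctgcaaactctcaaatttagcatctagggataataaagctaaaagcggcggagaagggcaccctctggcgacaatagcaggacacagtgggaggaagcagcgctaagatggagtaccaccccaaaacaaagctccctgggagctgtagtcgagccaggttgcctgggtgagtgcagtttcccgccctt
Ifit1 and Ifit3 held 2 cores each, all on the strand opposite to the gene. Ifit2 held 0 cores at this start, and 0 at its other RefSeq start. The gamma-activated site, which is not in capitals here, occurred at -241 from this start of Ifit2. Ifit1 and Ifit3 held 0 such sites. Of the 15 antiviral genes with a promoter entry but no core 13 fell, so lacking a core does not set Ifit2 apart. A link between the cores and the direction of change was not tested.

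**Figure D3:**
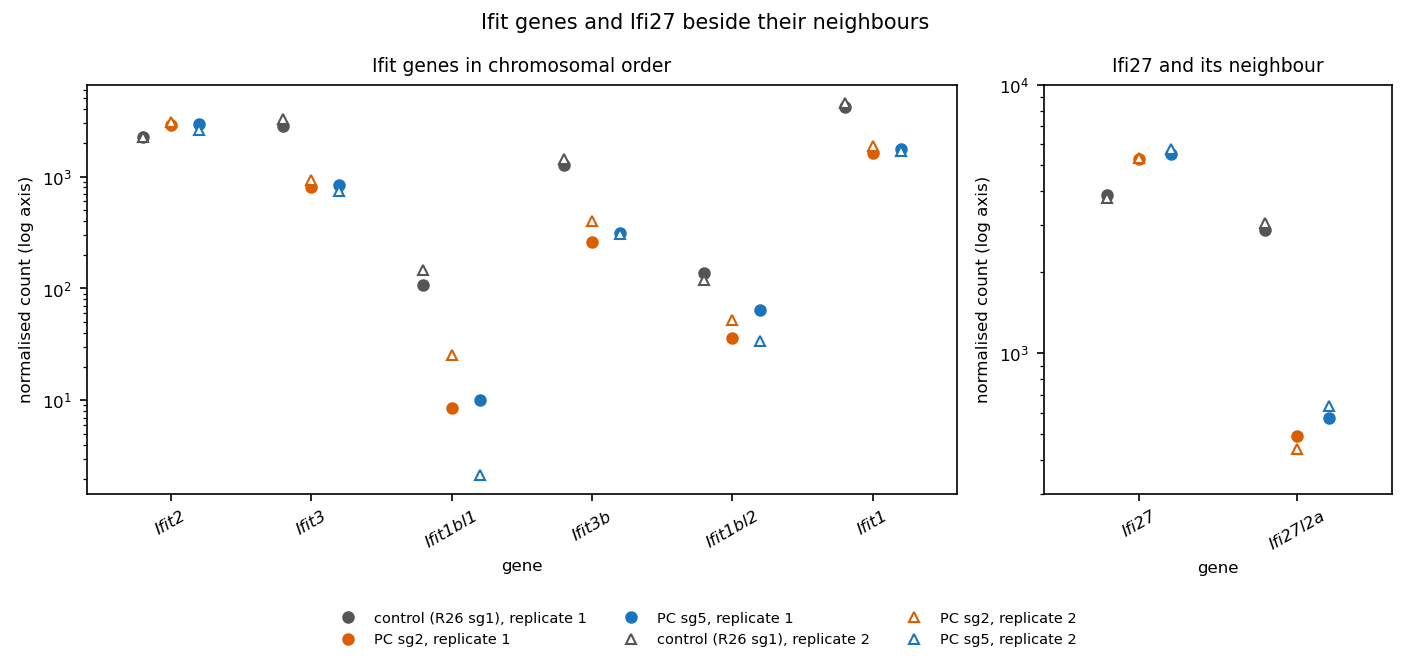
Normalised counts on a log axis in the 6 libraries for the 6 Ifit genes in chromosomal order, and for Ifi27 with its neighbour Ifi27l2a. Filled circles are replicate 1 and open triangles replicate 2. Ifit2 and Ifi27 are higher in all 4 PC libraries than in the controls, and each gene beside them is lower.

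Guanylate-binding proteins are large GTPases that coat and break the membranes around intracellular pathogens. All 3 in the set fell at least 2-fold, by similar amounts, and they lie in 1 cluster on chromosome 3 between 142493978 and 142638008. Gbp2 had 3404 and 3478 normalised counts under the control guide, 892 and 789 under PC sg2 and 904 and 988 under PC sg5, a log2 fold change of -1.95 ± 0.06 (SE) with an adjusted p of 2.01e-17. Gbp3 went from 2191 and 2259.6 to 553, 548, 622 and 605, a log2 fold change of -1.94. Gbp7 went from 2025 and 1967 to 479, 457, 421 and 566, a log2 fold change of -2.06. Each gene kept 24.1% to 26.2% of its control level and none had overlapping groups. The windows printed for Gbp2, Gbp3 and Gbp7 all place a core upstream of the start. Of Gbp7's exon bases 11.4% are shared with Gm43802, and 12.7% of its 50-base windows also occur elsewhere in the transcripts.

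Mx proteins are dynamin-like GTPases, of which mouse Mx1 acts in the nucleus against influenza-type viruses and Mx2 in the cytoplasm. Mx1 had 1832 and 2029 normalised counts under the control guide, 218 and 281 under PC sg2 and 278 and 209 under PC sg5. This was the largest change among the 39 genes, with a log2 fold change of -2.97 ± 0.11 (SE), an adjusted p of 9.26e-16 and 12.8% of the control level left. Mx2 went from 1552 and 1763 to 418, 460.3, 493 and 459.6, a log2 fold change of -1.85 ± 0.08 (SE), also without overlap. Both lie on chromosome 16 between 97447035 and 97560900. GENCODE M21 classes Mx2 as a polymorphic pseudogene, that is, a gene broken in some mouse strains. Counts do not show whether this line makes a working Mx1 or Mx2 protein.

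Parp enzymes attach ADP-ribose to proteins, and several are interferon-induced. All 5 genes of this group fell, 4 of them by at least 2-fold, with a median log2 fold change of -1.20. Parp14 had 4980.3 and 5465 normalised counts under the control guide, 1391 and 1326 under PC sg2 and 1444 and 1374 under PC sg5. All 4 PC values were far below both controls, the log2 fold change being -1.91 ± 0.05 (SE) and the adjusted p 1.04e-18. Parp9 works as a complex with the ubiquitin ligase Dtx3l, and the 2 genes start 681 bases apart on opposite strands of chromosome 16, in the stretch 35832874 to 35972605 that also holds Parp14. Parp9 went from 3779 and 4075 to 1409, 1263, 1439.5 and 1295, a log2 fold change of -1.54 ± 0.06 (SE). Dtx3l went from 3139 and 3253 to 1325, 1302, 1430.4 and 1509, a log2 fold change of -1.20 ± 0.05 (SE). Their annotated exons overlap each other over 9.4% of Parp9's and 8% of Dtx3l's bases. Parp12, which restrains several RNA viruses, had 4614 and 4897 in the 2 controls and 2330.5, 2318, 2218 and 2253 across the PC libraries, keeping 47.9%. Parp10, a mono-ADP-ribosyltransferase, went from 4215 and 4442 to 2503, 2505, 2578 and 2582 and kept 58.7%, the one gene of this group that fell by less than 2-fold.

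The 7 genes of ubiquitin and ubiquitin-like modification all fell, 5 of them by at least 2-fold, with a median log2 fold change of -1.26. Isg15 encodes a ubiquitin-like protein that is joined to newly made proteins, Herc6 the ligase that joins it in mice, and Usp18 the protease that removes it and also brakes the interferon receptor. Isg15 had 3632 and 3968 normalised counts under the control guide, 1458 and 1479.9 under PC sg2 and 1498 and 1597 under PC sg5, a log2 fold change of -1.33 ± 0.05 (SE) with an adjusted p of 5.00e-16. Usp18 went from 1634 and 1809 to 602, 671, 613 and 695, a log2 fold change of -1.41 ± 0.07 (SE). Herc6 went from 1028 and 1167 to 485, 510.3, 487 and 558, a log2 fold change of -1.10 ± 0.08 (SE). So the conjugated protein, its ligase and its protease were each lower in every PC library, and Herc6 shares 13.7% of its exon bases with Gm45193. The E1 and E2 enzymes of the same chain, Uba7 and Ube2l6, are not among the 39 genes. Uba7 had a log2 fold change of -2.18 ± 0.10 (SE) and Ube2l6 of -0.88 ± 0.06 (SE), so both fell as well.

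The 3 Trim ubiquitin ligases differed in how far they fell. Trim30a, a rodent gene of the family, went from 4581 and 4547 normalised counts to 1367, 1283, 1497 and 1370.1 and kept 30.2%. Trim21, a cytosolic receptor for antibody-coated virus, had 893 and 1021 in the 2 controls and 365, 403, 399 and 432 across the PC libraries, keeping 41.7%. Trim25, the ligase that acts in RIG-I signalling, went from 12108 and 12729.5 to 8975, 9152, 8450.0 and 8529, a log2 fold change of -0.50 ± 0.03 (SE). Trim25 was more abundant than the other two Trim genes in every library, and kept 70.7% of its control level. Rnf213, a very large ligase that coats intracellular bacteria, had 39675 and 44486 under the control guide, 22508 and 23812 under PC sg2 and 22427 and 23389 under PC sg5. The PC libraries kept 54.7% of the Rnf213 level, a log2 fold change of -0.87 ± 0.03 (SE).

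Of the 9 other effectors 8 fell, 6 of them by at least 2-fold, and Ifi27 rose. Rsad2 encodes viperin, which makes a chain-terminating nucleotide, and Cmpk2 beside it a kinase that supplies its substrate. The 2 genes point away from each other on chromosome 12, with starts 12752 bases apart. Cmpk2 had 706 and 806 normalised counts under the control guide, 150.4 and 186 under PC sg2 and 158 and 143 under PC sg5, a log2 fold change of -2.24 ± 0.12 (SE). Rsad2 had 351 and 384 under the control guide, 146 and 186 under PC sg2 and 127 and 100.5 under PC sg5, a log2 fold change of -1.42 ± 0.15 (SE). Cmpk2 thus kept 21.1% and Rsad2 38.2% of the control level, and the test of a difference between the 2 genes was not run. Bst2, also called tetherin, holds budding virus at the cell surface. It went from 12895 and 13370.5 to 6713, 6748, 7115 and 7665, a log2 fold change of -0.90 ± 0.03 (SE).

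Ifi27, a small mitochondrial protein, went the other way. It had 3888 and 3798 normalised counts under the control guide, 5281 and 5340.0 under PC sg2 and 5495 and 5741 under PC sg5. All PC values exceeded both controls, the log2 fold change being 0.51 ± 0.03 (SE) and the adjusted p 1.57e-11, and the value ran from 0.47 to 0.55 over the 17 other settings. The neighbouring relative Ifi27l2a, on chromosome 12 in the same stretch from 103434211 to 103443680, went from 2884 and 3048 to 495, 441, 573 and 635. That is a log2 fold change of -2.48 ± 0.07 (SE), in the direction of most antiviral genes and opposite to Ifi27.

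The remaining effectors fell. Samd9l, which slows translation, went from 5223 and 5293 normalised counts to 1808, 1828, 1830.0 and 1704, a log2 fold change of -1.55. Ifi44 went from 2265 and 2396 to 908, 898, 889 and 1024, a log2 fold change of -1.33. Xaf1, which promotes cell death, went from 2336 and 2482 to 1001, 977, 1029 and 908, a log2 fold change of -1.30. On average the PC libraries kept 34.1% of the control level of Samd9l, 39.9% of Ifi44 and 40.6% of Xaf1. Lgals3bp, a secreted galectin-binding protein, went from 11998 and 12318 to 5721, 5530.3, 5894 and 5921, keeping 47.4%. Ifi35 went from 2917 and 3259 to 1641, 1716, 1740.0 and 1894, keeping 56.6%, and shares 16.8% of its exon bases with Gm11626.

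The 39 genes covered a wide range of levels. Per exon length and library depth (RPKM), Bst2 was highest in the controls at 280.5, followed by Isg15 at 96.9, Lgals3bp at 82.4, Ifi27 at 50.5, Rnf213 at 48.0 and Trim25 at 41.6. The median was 13.1 and the lowest was Oasl1 at 0.142. In the PC pools Bst2 stood at 158, Isg15 at 40.4, Lgals3bp at 41.0 and Ifi27 at 75.4 on the same per-length scale, so that Ifi27 ranked above Isg15 and Lgals3bp there. Across the 39 genes the control level per length and the log2 fold change had a Pearson r of 0.202 on log2 levels and a Spearman rho of 0.364. Both are descriptions across genes that share libraries and the control values.

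**Figure D4:**
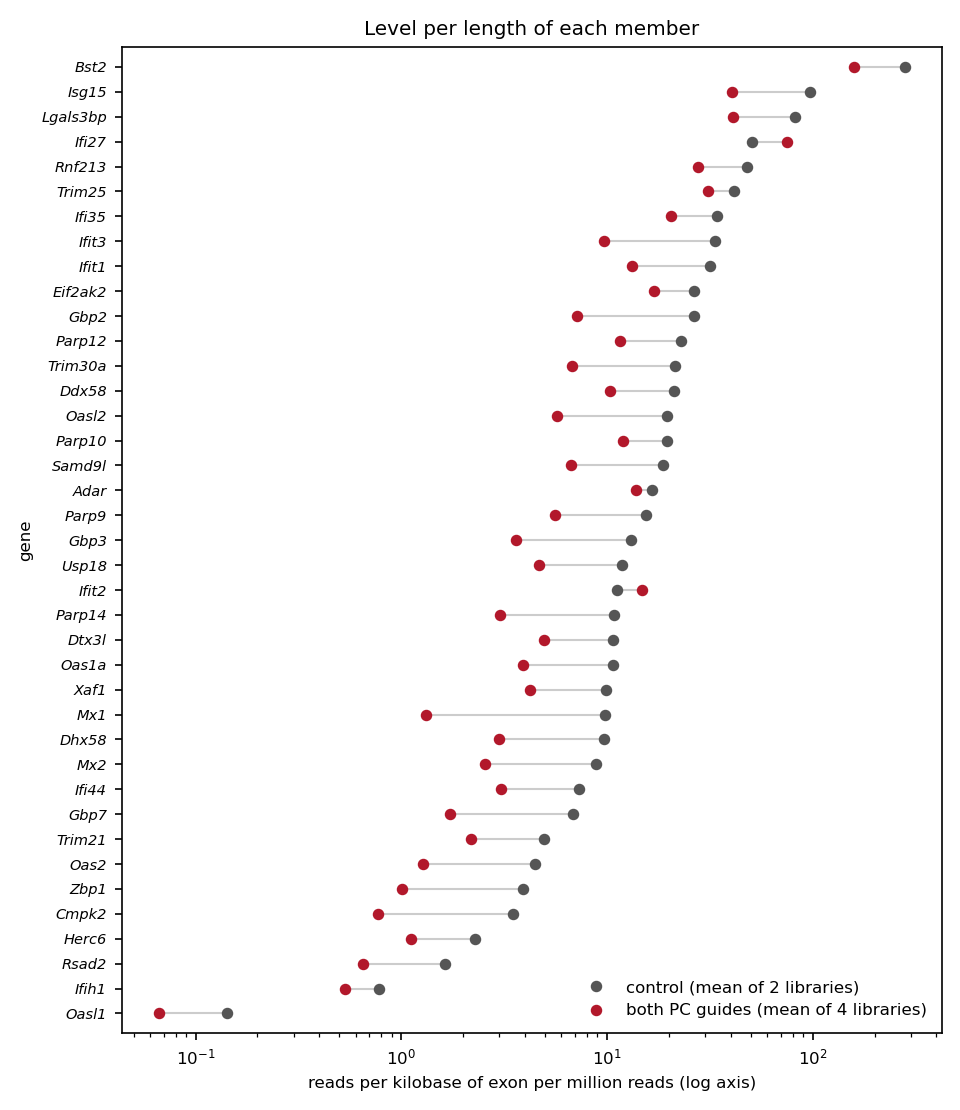
Level per exon length (RPKM, log axis) of each antiviral gene in the controls, with its change under both PC guides. Genes at high and at low level fell, and the 2 that rose, Ifit2 and Ifi27, lie within the range of levels of the others.

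Each PC guide on its own gave similar counts of genes against the control libraries, which the 2 comparisons share. With PC sg2, 37 of the 39 genes fell and 2 rose, against 31.6% and 32.9% of all genes tested, and the median log2 fold change was -1.37. With PC sg5, 36 fell and 2 rose, against 31.8% and 32.6%, with a median of -1.32. Mx1 had a log2 fold change of -2.96 with PC sg2 and -2.99 with PC sg5. Isg15 had -1.37 and -1.29, and Ifit2 had 0.40 and 0.27. Oasl1 passed with PC sg2 (adjusted p = 0.0368) and not with PC sg5 (adjusted p = 0.27). The call with PC sg2 was lost in DESeq2 (adjusted p = 0.078), with quantile normalisation, and without either control replicate or PC sg2 replicate 2.

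Setting PC sg5 directly against PC sg2, 0 of the 39 genes passed the threshold in limma, where 0.242% of all genes tested did, and 0 passed in edgeR and in DESeq2. At an unadjusted p under 0.05 there were 10 of 39, or 25.6%, against 10.6% of all genes. The differences, as PC sg5 minus PC sg2 on the log2 scale, ran from -0.54 for Rsad2 to 0.74 for Oasl1 with a median of 0.05, and 35 of the 39 were within 0.25 of 0. For 35 genes the 95% interval of the difference lay within 0.5 of 0, while Oas2 (0.26 to 0.71), Rsad2 (-0.90 to -0.18) and Zbp1 (-0.80 to -0.02) had intervals on 1 side of 0 that reached beyond it, and that of Oasl1 ran from -0.58 to 2.06. Without PC sg5 replicate 1, Oas2 (difference 0.60) and Bst2 (0.19) passed, and without PC sg5 replicate 2, Zbp1 (-0.84) passed. Pcx differed between these guides by a log2 of 1.05 with an adjusted p of 6.60e-07 (limma), being higher with PC sg5. The antiviral genes therefore showed no difference past the threshold between guides that differed in the Pcx level left, which does not show that the guides act alike.

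The signalling genes upstream of the antiviral set were also mostly lower. Of 39 genes listed for the interferon pathway 31 had a row. Of these 26 fell and 3 rose, against 33.6% and 34.3% of all genes tested, with a median log2 fold change of -0.75. The 7 interferon genes listed and Irf8 had no row and were not analysed here. All 4 receptor chains fell: the log2 fold change was -0.53 for Ifnar1, -0.48 for Ifnar2, -0.75 for Ifngr1 and -0.57 for Ifngr2. Of the receptor kinases Tyk2 (-0.87) and Jak1 (-0.46) fell. Jak2 had a log2 fold change of 0.10 (adjusted p = 0.0185), which lost its call with quantile normalisation (0.06), with no intensity trend (0.10) and without control replicate 2 (0.08).

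All 8 measured transcription factors of the STAT and IRF group fell, against 33.6% of all genes tested. Their median log2 fold change was -1.02, where that of the 4 receptor chains was -0.55. Stat2 had 8614 and 8901 normalised counts in the 2 control libraries and 2748, 2726, 2973 and 2851 across the PC libraries, or -1.63 ± 0.04 (SE) as a log2 fold change with an adjusted p of 9.88e-20. Irf9, its DNA-binding partner, had a log2 fold change of -0.76 ± 0.04 (SE), so both fell. Irf7, which amplifies interferon production, went from 1495 and 1537 to 403, 402, 429.9 and 449, a log2 fold change of -1.85 ± 0.07 (SE). Irf1, which is induced by both interferon types, fell by 1.09 on the log2 scale.

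Adaptors and other sensors were less uniform. Of 8 genes 5 fell, where 33.6% of all genes tested did. Among the 5 were Ikbke (log2 fold change -1.51), Tlr3 (-1.36) and Tmem173 (-0.81), which encodes STING. Mavs (0.05) and Myd88 (0.03) did not pass. Cgas, the cytosolic DNA sensor upstream of STING, rose, from 491 and 567 normalised counts to 1093, 1134, 1152 and 959.7, a log2 fold change of 1.03 ± 0.08 (SE) with an adjusted p of 1.34e-10. Every PC library was above both controls for Cgas. Of the 6 brakes listed 5 fell, including Socs3 (-1.70) and Socs1 (-0.96), and the phosphatase gene Ptpn2 (0.45) rose. Pias1 (-0.18) lost its call without control replicate 1 (-0.11).

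Relatives of the antiviral genes outside the set were counted by family. Of 66 listed 60 had a row. Of these 46 fell and 9 rose, against 33.6% and 34.3% of all genes tested, with a median log2 fold change of -1.40. All 4 further Oas genes, all 3 further Ifit genes and 13 of 14 further Gbp and IRG GTPases fell. The most abundant of each were Oas1b (-1.53), Ifit3b (-2.09) and Irgm1 (-1.02), a GTPase that guards against intracellular bacteria. Some of these relatives share sequence, so their counts may not be separate. Of the 50-base windows, 86.6% of Tgtp2, 81.2% of Tgtp1, 70.7% of Gbp6, 45.7% of Oas1g and 45% of Ifit3b also occur in other genes. Irgm1 (0.379%) and Oas3 (0.521%) shared few. Gbp5 and Gbp11 were near the limit of detection, with as few as 0 and 1 reads in a library. In the small induced proteins 14 of 14 fell. Among them Ifitm3, a membrane protein that stops virus fusion and the most abundant of the group, went from 33814 and 34204 normalised counts to 11237, 10937, 11649.7 and 12019, a log2 fold change of -1.57 ± 0.03 (SE). Of the 10 further ubiquitin-like genes 7 fell and Trim26 (0.17) and Trim56 (0.16) rose. Gbp5 and Gbp11 lost their calls without control replicate 2 (adjusted p = 0.0746 and 0.074), Trim14 did so too (0.108), and Slfn5 did so without control replicate 1 (0.171). Gbp5 was also lost with no intensity trend (0.0985).

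Of 15 further Parp and Dtx genes 5 fell and 7 rose, with a median log2 fold change of 0.06. Of all genes tested 33.6% fell and 34.3% rose. The share of the 15 that fell is near the first, and the share that rose is above the second. A difference from all genes was not tested, and neither count is read as a result about the family. Parp1 (0.12) and Parp2 (0.49), which act in DNA repair, rose, as did Tnks (0.18), Parp6 (0.60), Tiparp (0.36) and Dtx2 (0.57). Zc3hav1 (0.45), which encodes the zinc-finger antiviral protein ZAP, rose too. The relatives that fell were Parp3 (-1.22), Parp16 (-0.85), Parp11 (-0.53), Parp4 (-0.22) and Tnks2 (-0.08). Zc3hav1 had 7042 and 7213 normalised counts in the 2 control libraries and 10230.5, 10266, 9726 and 8777 across the PC libraries, with no overlap. Tnks2 (-0.08) lost its call with quantile normalisation (-0.0032), when rescaled without the 50 most abundant genes (-0.04) and with no intensity trend (-0.08). Dtx3 (0.06) gained one when so rescaled (0.11).

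**Figure D5:**
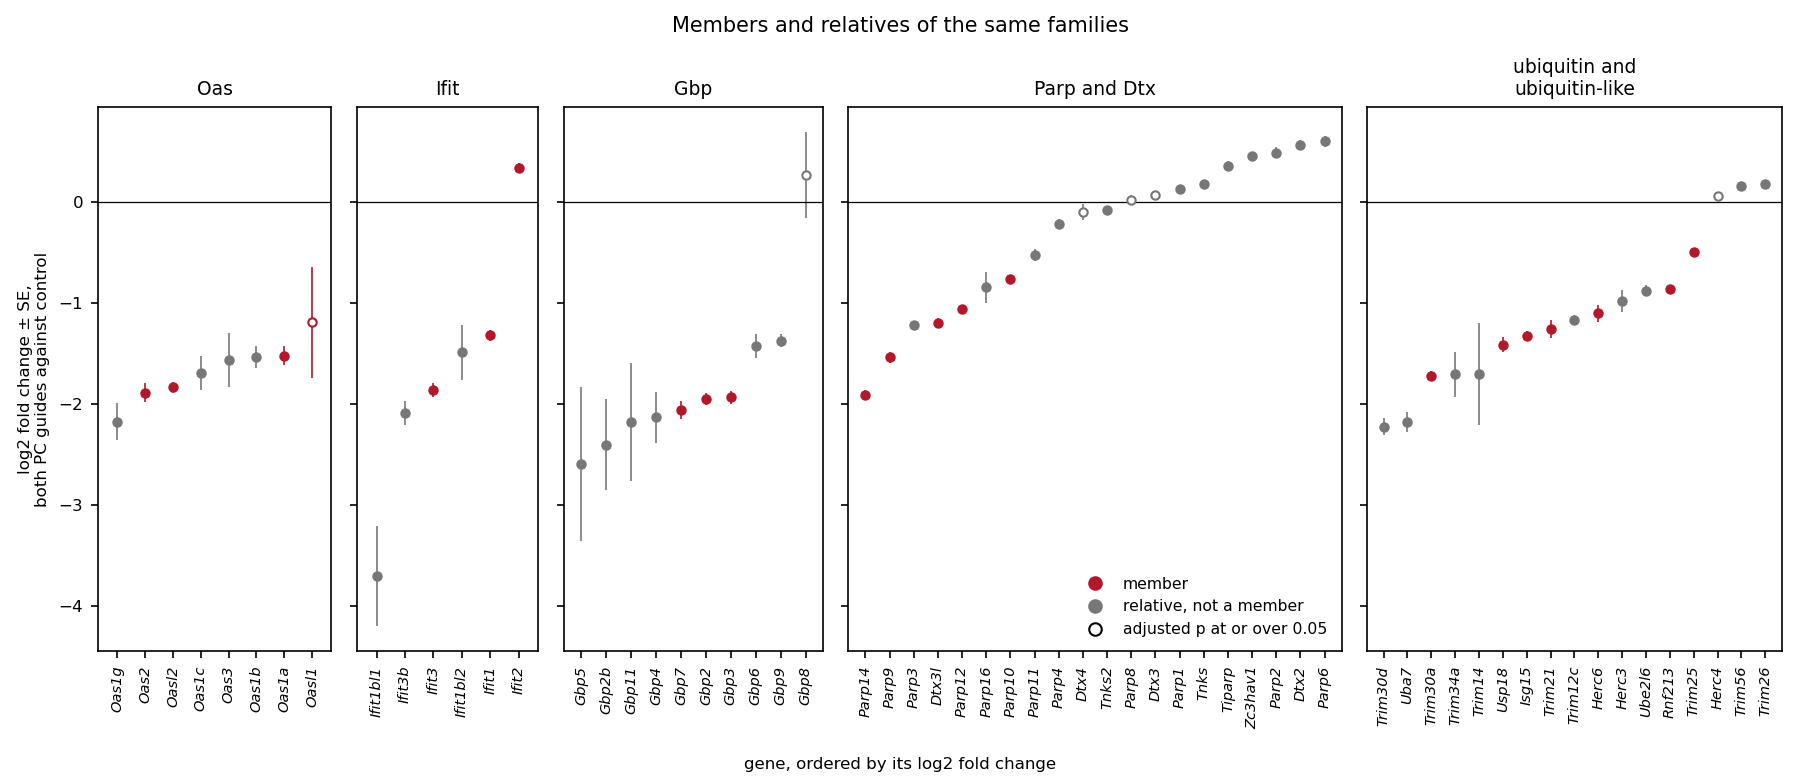
Log2 fold change of both PC guides against the control, with its SE, for antiviral genes (red) and relatives (grey) of 5 families. Open points did not pass the threshold. Points of the Oas and Ifit families lie below 0 except Ifit2, while the Parp and Dtx panel has relatives on both sides.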

How the data were processed

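RNA was measured in 6 libraries. Per the submitters' processing notes, the authors used bcl2fastq 2.17, Trimmomatic, STAR, featureCounts and DESeq2 with the mouse build GRCm38. Their settings, gene annotation and use of strand were not given in the sources used here, and the kit named in the labels does not mark strand. The values the authors deposited are normalised counts, a signal obtained by dividing each library's reads per gene by its size factor. In each library 100% of non-zero values were multiples of 1 step (tolerance 0.01), which gave back the reads used by edgeR 4.0.16 and DESeq2 1.42.0 as alternatives.

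Symbols came from GENCODE M21 (49 of 16540 identifiers had none). Genes with 10 or more normalised counts in 2 or more libraries were kept (14 were left out) and tested on log2(value + 1) with limma 3.58.1 in R 4.3.3, with an intensity trend and 1 model of 3 groups (3 residual degrees of freedom), two-sided. The p-values were adjusted by the Benjamini-Hochberg method over all 16526 genes tested. A fold change on this scale understates the change of low genes. The steps were tested on simulated data.

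Levels per length divide by the exon bases of GENCODE M21. Alternatives covered the pseudocount, the filter, scaling, the test, the replicate number as a block and each library left out. Every antiviral gene is named. Of the pathway list, receptors, Jak kinases, Stat2, Irf9, Irf7, Irf1, Mavs, Tmem173 and Cgas were to be named, and of the relatives those changed against the antiviral genes and the most abundant of each family. The other pathway genes, Uba7, Ube2l6, Ifi27l2a, the Ifit relatives and genes whose call changed with a setting were named after their values were seen. So were the Parp relatives that fell and the relatives named for shared windows or few reads. Some listed genes are not reported here by name. The antiviral genes and lists were chosen with earlier results of these data known.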

Additional observations from a re-analysis of the deposited data

Results flagged for a closer look

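Over the 4 PC libraries, a single value stood far from the other three in 3 of the 39 antiviral genes. Chance alone would mark about 1 gene in 20. Zbp1 was low in PC sg5 replicate 1, at 110.3 normalised counts, where the other three PC libraries had 196 to 201. Ifi44 was high in PC sg5 replicate 2, at 1024 normalised counts. Samd9l was low in the same library, at 1704 normalised counts. PC sg5 replicate 2 had the fewest recovered reads of the 6 libraries, 22895172, and the part of depth in these values was not tested. All 4 PC values of each of these genes were still below both controls.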

How the results depend on the processing

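With both guides against the control, 38 or 39 of the 39 antiviral genes passed under the 17 alternatives, 28 or 29 of the 31 pathway genes and 50 to 55 of the 60 relatives. Against the control, PC sg2 gave 38 or 39 and PC sg5 gave 38. Between the guides, the count of 0 became 2 with the replicate number as a block (Oas2 and Bst2) and ran from 0 to 2 when single libraries were left out, 2 without PC sg5 replicate 1 and 1 without PC sg5 replicate 2. No gene named that passed the threshold changed direction in any alternative, while some that did not pass, most of them differences between the guides, changed sign. Scaling moved the median of all genes by at most 0.06 on the log2 scale (quantile normalisation). The labels number the libraries 1 and 2 within each guide, but libraries with the same number did not deviate together (correlations over genes of -0.02, 0.03 and 0.03 for the 3 pairs of guides), so that the numbers do not pair them. The block left 38 antiviral genes past the threshold for both guides, 39 for PC sg2 and 38 for PC sg5. With 2 libraries per guide, low genes were least certain. Oasl1 had no test at a mean of at least 50 normalised counts, which removed it.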
